A study of Mus musculus with 64 samples.

Results

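The chemokine ligand genes expressed by mouse pancreatic tumor cell lines were examined in mono-culture and after coculture with fibroblasts. Members were all genes of the count table whose symbol is Ccl, Cxcl or Cx3cl followed by a number and at most 1 letter, which gave 41 of 39017 genes under 38 symbols. The 8 lines were clones E, H and V (group 1) and K, M, N and T (group 2), a division of the clones by metabolism, and the KPC1 line, which is in neither group. The clones were subcloned from a polyclonal line of a pancreatic tumor of a KPC mouse, in which Cre driven by the Pdx1 promoter recombines a mutant Trp53 allele, on a mixed C57BL/6 background, so the clones share 1 tumor and are not independent tumors. For each line, 4 libraries were made from mono-cultures and 4 from tumor cells grown for 48 h with fibroblasts and sorted on the green fluorescent protein carried by the tumor cells, which gave 64 libraries of polyadenylated RNA. The labels do not say whether mono-cultures were sorted, nor whether the 4 libraries came from separate cultures, so p-values within a line measure only the spread between these libraries.

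Chemokines are small secreted proteins that draw leukocytes along a gradient through G protein-coupled receptors on the target cell. CXC ligands with a Glu-Leu-Arg motif, such as Cxcl1 and Cxcl5, attract neutrophils through Cxcr2, the interferon-inducible ligands Cxcl9, Cxcl10 and Cxcl11 attract activated T cells through Cxcr3, and Ccl2 and Ccl7 attract monocytes through Ccr2. Cxcl12, the Cxcr4 ligand, is best known as a stromal product, while Cx3cl1 and Cxcl16 are made as transmembrane proteins and shed by metalloproteases. In pancreatic cancer such ligands are studied for the myeloid cells and T cells that they bring into, or keep out of, the tumor.

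Libraries held between 11178721 and 21333683 counts, and 3 counts, taken as the floor, corresponded to between 0.0425 and 0.0565 CPM (counts scaled to a common library size) over the 4 libraries of a line and culture. Levels are given as CPM on edgeR's trimmed-mean library sizes when samples are compared, and as the authors' RPKM, which are scaled to gene length as well, when genes are compared. Every library correlated best with a library of its own line and culture. Of 6 markers of tumor epithelium, the keratins Krt8 and Krt18 were high in all lines, at 688 to 1281 CPM for Krt8 in mono-culture. Over the mono-cultured lines, Krt19 ran from 169 to 925 CPM, Cdh1 from 0.998 to 304 CPM and Krt7 from 0.854 to 11.4 CPM. Epcam stayed at or below 0.37 CPM in every group. All 11 of the 12 fibroblast markers that could be tested were higher in coculture. The summed level of the 12 markers was 57.3 to 204 CPM in the mono-culture groups and 612 to 1254 CPM in the coculture groups. For the 6 markers that were under 0.1 CPM in every mono-culture group (Dcn, Lum, Fap, Postn, Thy1 and Pdpn, a subset chosen after their values were seen), the sums were 0.013 to 0.074 CPM and 63.6 to 104 CPM. The coculture libraries therefore held transcripts of markers that the mono-cultured lines nearly lacked, in every line, and each rise below is given with that in view; the part of this RNA in the ligand values was not tested except where a value is named.

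Of the 41 genes, 9 had no count in any library. These were Ccl19, Ccl21a, Ccl21b, the 3 identifiers of Ccl21c, Ccl26, Ccl27b and Cxcl14, that is, the Ccr7 ligands of lymphoid tissue, an eotaxin and 2 others, although the Ccl21 genes are near-identical copies whose reads could be lost in counting. A further 15 were at trace level, with between 1 and 138 counts in all 64 libraries together. Cxcl11, annotated as a polymorphic pseudogene, had 138 counts, Ccl17 had 72, Ccl11 had 71, Ccl8 had 56, Ccl6 had 41, Ccl28 had 21, Ccl1 had 16 and Ccl3 had 13. Cxcl9, Cxcl13, Ccl22 and Ccl12 had 3 counts each, Ccl4 had 2, and Ccl24 and the second identifier of Ccl25 had 1. Ccl3, Ccl4, Ccl17 and Ccl22, which are best known from leukocytes, were among them. Ccl11, an eosinophil attractant, was the trace gene most uneven between cultures, with 6 counts in mono-culture and 65 in coculture. That left 17 ligands with enough counts to test, 15 of them across lines and another 2, Cxcl2 and Ccl20, only within lines.

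Promoters are shown for 4 neighboring Glu-Leu-Arg CXC genes on chromosome 5 and for Cxcl10, because members of this chromosome 5 cluster moved in opposite directions in coculture. RefSeq sequences on GRCm38.p6 were at hand for 26 of the 38 symbols, including 11 of the 17 tested ligands (not Ccl2, Ccl5, Ccl7, Cxcl5, Cxcl16 or Cxcl17), and only the 250 bases before the transcription start were used, written 5′ to 3′. Capitals mark matches on either strand to the NF-kB consensus or to the core of the interferon-stimulated response element.
Cxcl3 (chr5:90785851-90786100, plus strand): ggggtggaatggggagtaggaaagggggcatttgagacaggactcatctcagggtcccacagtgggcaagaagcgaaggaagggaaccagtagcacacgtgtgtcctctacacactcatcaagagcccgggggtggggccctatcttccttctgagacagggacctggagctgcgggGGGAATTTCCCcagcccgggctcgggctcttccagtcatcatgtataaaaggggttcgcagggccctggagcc
Cxcl15 (chr5:90794284-90794533, plus strand): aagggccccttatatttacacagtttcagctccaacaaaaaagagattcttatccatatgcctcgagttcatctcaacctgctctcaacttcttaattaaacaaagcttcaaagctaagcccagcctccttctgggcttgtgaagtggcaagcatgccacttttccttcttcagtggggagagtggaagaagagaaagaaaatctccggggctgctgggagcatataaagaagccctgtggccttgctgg
Cxcl1 (chr5:90890995-90891244, plus strand): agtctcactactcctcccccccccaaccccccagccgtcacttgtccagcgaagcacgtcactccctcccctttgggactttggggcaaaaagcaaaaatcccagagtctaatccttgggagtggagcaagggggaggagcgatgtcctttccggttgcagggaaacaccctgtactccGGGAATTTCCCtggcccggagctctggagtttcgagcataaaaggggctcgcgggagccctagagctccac
Cxcl2 (chr5:90903649-90903898, plus strand): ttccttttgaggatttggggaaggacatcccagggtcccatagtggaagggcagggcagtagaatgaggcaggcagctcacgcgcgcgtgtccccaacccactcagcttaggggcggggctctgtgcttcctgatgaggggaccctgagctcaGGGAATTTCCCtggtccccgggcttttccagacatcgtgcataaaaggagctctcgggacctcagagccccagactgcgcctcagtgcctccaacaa
Cxcl10 (chr5:92348890-92349139, minus strand): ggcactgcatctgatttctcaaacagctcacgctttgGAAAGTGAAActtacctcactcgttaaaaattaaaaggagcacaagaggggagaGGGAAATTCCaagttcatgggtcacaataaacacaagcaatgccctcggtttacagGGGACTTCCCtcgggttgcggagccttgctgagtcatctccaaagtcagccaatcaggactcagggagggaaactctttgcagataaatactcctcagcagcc

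The NF-kB consensus was found in 6 of the 26 symbols, Cxcl1, Cxcl2, Cxcl3, Cxcl10, Ccl9 and Ccl20. It was in 3.9% of all promoters of the same length, a share counted by promoter entry. The 26 symbols had 32 entries, so the count and the share are not in the same unit. In Cxcl1, Cxcl2 and Cxcl3 the 2 matches were overlapping readings of the same GGGAATTTCCC on opposite strands, starting 71, 97 and 73 bases before the start. Cxcl10 held 2 separate NF-kB matches and 1 response element core. That core was found in 3 of the 26 symbols, Cxcl10, Ccl19 and Cxcl14, and in 2.98% of all promoters, again counted by entry. Ccl19 and Cxcl14 had no count in any library. Neither motif was in the 250 bases before Cxcl15. A match describes these letters only.

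**Figure D1:**
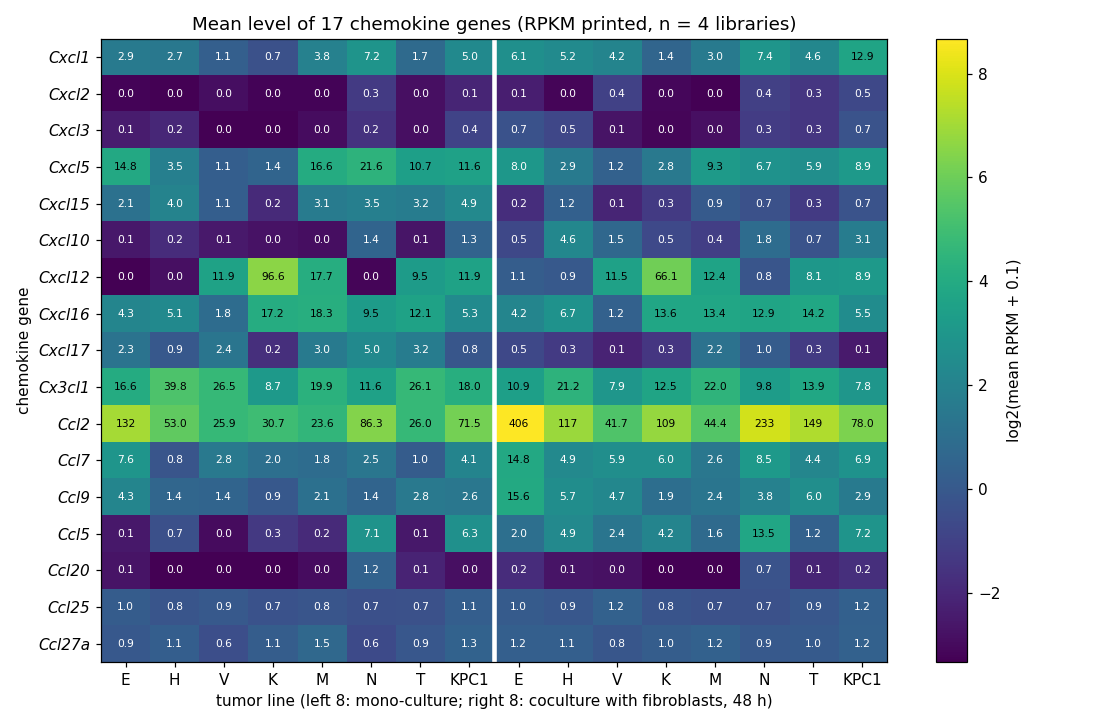
Mean RPKM (printed, n = 4 libraries) of the 17 tested chemokine genes, rows, in 8 tumor lines, columns, in mono-culture (left) and coculture (right), with log2(RPKM + 0.1) as color. Ccl2 is the brightest row, and Cxcl12 is the row with the widest contrast between lines, from 0 in clone E to 96.6 RPKM in clone K in mono-culture.

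On the per-length scale, Ccl2 was the leading ligand transcript. Its mean RPKM in mono-culture ran from 23.6 in M to 132 in E. It made up between 19.1% (K) and 69.6% (E) of the summed RPKM of all ligands in mono-culture and between 38% (M) and 85.8% (E) in coculture. The exceptions to its lead were 3 mono-cultures. Cxcl12 took 60.01% of the sum in K, and Cx3cl1 took 33.9% in V and 26.6% in T, where Ccl2 followed with 33.1% and 26.5%. The summed ligand RPKM was 189 in mono-culture and 474 in coculture in E, 160 and 303 in N, and 98.0 and 212 in T, while it was 147 and 148 in KPC1 and 113 and 117 in M. Behind Ccl2, the ligands at 1 RPKM or more in every mono-culture were Cx3cl1, Cxcl16 and Cxcl5.

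**Figure D2:**
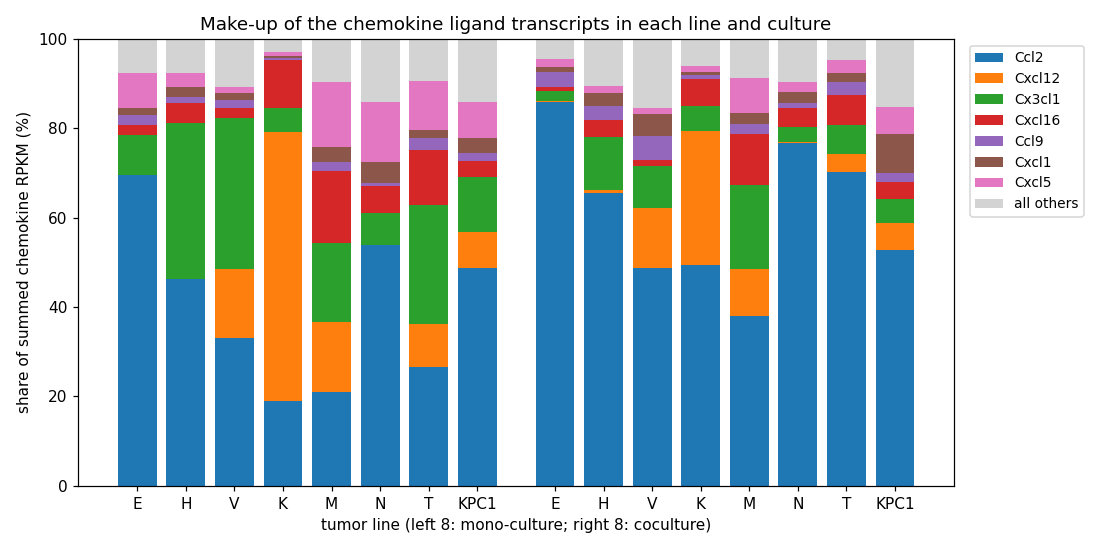
Share of each ligand in the summed RPKM of all chemokine ligands (vertical axis, percent) in each line, mono-culture on the left and coculture on the right, as stacked bars of the group means. Ccl2 fills 85.8% of the bar of clone E in coculture, and Cxcl12 fills 60.01% of the bar of clone K in mono-culture.

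To ask which ligands changed when tumor cells were grown with fibroblasts, the 4 libraries of each line and culture were summed and edgeR's quasi-likelihood test was run over the 8 lines with the line as a covariate, at a Benjamini-Hochberg adjusted p under 0.1. Of the 15 ligands tested, 8 were higher in coculture, where 27.2% of all 14478 genes were higher, and 3 were lower, where 27.4% of all genes were, so 11 of 15 were called beside 54.6% of all genes. The 8 were Ccl5, Cxcl10, Cxcl3, Ccl7, Ccl2, Ccl9, Cxcl1 and Ccl25, and the 3 were Cxcl15, Cxcl17 and Cx3cl1. The median change was 0.93 on the log2 scale over the 15 and -0.00089 over all genes. By group means, 6 of the 15 were higher in coculture in all 8 lines, which was the case for 14.3% of all genes. Within single lines, 59 of 136 pairs of ligand and line were higher and 21 were lower, against 23.7% and 21.9% of all gene and line pairs. The 4 coculture libraries did not overlap with the 4 mono-culture libraries in 69 of the 136 pairs, compared with 35.3% of all such pairs. All of these counts come with the fibroblast marker transcripts described above in every coculture group, whose source was not tested. Without the coculture library of each line that was highest in fibroblast markers, a choice made after seeing the data, 8 ligands were higher and 3 lower over the lines. The libraries kept still held these markers, as every coculture library had 17.9 CPM or more of the 6. Mono-culture libraries held at most 0.201 CPM, so this count does not test the part of that RNA.

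**Figure D3:**
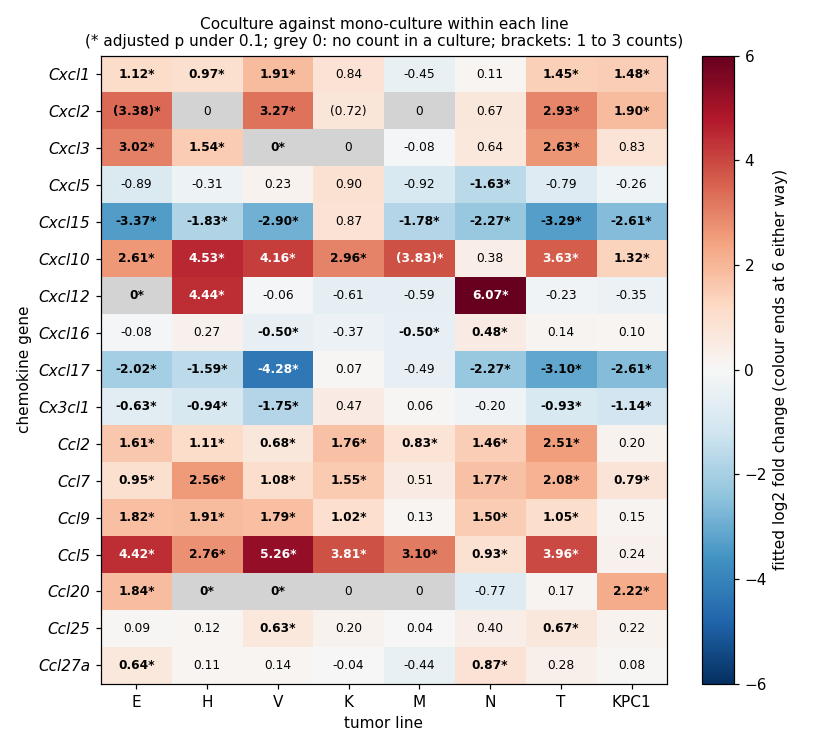
Fitted log2 fold change of coculture against mono-culture for 17 chemokine genes (rows) within 8 tumor lines (columns), from 4 against 4 libraries without pairing. Asterisks mark an adjusted p under 0.1, gray cells a gene with no count in a culture of that line and brackets 1 to 3 counts, and Ccl5 and Ccl2 are called higher in 7 lines, and Cxcl15 is called lower in 7.

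Ccl2, Ccl7 and Ccl9, which attract monocytes and other myeloid cells, rose in coculture. Ccl2 (ENSMUSG00000035385, chr11:82035571-82037453, plus strand, GRCm38) was 67.8 CPM on average over the mono-cultured lines and 177 CPM in coculture, a rise of 1.28 ± 0.22 on the log2 scale (SE, 8 lines, adjusted p = 0.00253, edgeR). In E, the 4 mono-culture libraries held 148, 205, 116 and 162 CPM, and the 4 coculture libraries 708, 474, 398 and 339 CPM, with no overlap. In T, 29.4, 40.2, 22.8 and 34.1 CPM compared with 217, 147, 224 and 133 CPM, again apart. KPC1 was the line without a call, at 104, 91.3, 80.7 and 65.3 CPM in mono-culture and 155, 62.2, 108 and 67.2 CPM in coculture, and those ranges overlapped. Ccl2 was called higher in the 7 clones, by 0.68 in V to 2.51 in T, the call in V being lost without replicate 1 or 2 (adjusted p = 0.164 and 0.149), and the response differed among lines (F test, adjusted p = 6.31e-05). The rise was 322 CPM in E, with 64.5 CPM of the 6 fibroblast markers, and 12.8 CPM in KPC1, with 66.5 CPM of them. In T, where the log2 change was largest, the markers were at 89.6 CPM, and their part in the rise of Ccl2 was not tested.

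Ccl7, the neighbor of Ccl2 on chromosome 11 and a ligand of the same receptor, rose by 1.41 ± 0.23 on the log2 scale (SE, adjusted p = 0.00212, edgeR), was higher in all 8 lines and was called in 7. The exception was M, at 1.52 CPM in mono-culture and 2.17 CPM in coculture, and the call in KPC1 was lost without replicate 1, 3 or 4. H began lowest, with 0.504, 1.42, 0.703 and 0.306 CPM, and reached 1.81, 4.06, 5.72 and 4.95 CPM. Ccl9, a Ccr1 ligand, rose by 1.17 ± 0.23 (SE, adjusted p = 0.00404, edgeR) and was called in 6 lines, of which K lost its call without replicate 1, 2 or 4. It was highest in E, with 15.5, 15.1, 10.7 and 13.1 CPM in mono-culture and 61.8, 46, 35.1 and 49.7 CPM in coculture. In M and KPC1 its means were 6.82 and 7.45 CPM, and 8.40 and 9.43 CPM, and were not called. The response of Ccl9 differed among lines (adjusted p = 0.0053), as did that of Ccl7 (adjusted p = 0.01), the latter at 0.169 without replicate 4.

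Ccl5 (chr11:83525778-83530518, minus strand), a T cell and monocyte attractant, and Cxcl10 (chr5:92346638-92348889, minus strand), a ligand of Cxcr3, were low in most mono-cultures and rose most. Ccl5 rose by 2.88 ± 0.57 and Cxcl10 by 2.86 ± 0.51 on the log2 scale (SE, adjusted p = 0.0039 and 0.00272, edgeR), and each was higher in all 8 lines by its mean. In mono-culture, Ccl5 was at 7.40 ± 3.22 CPM in N and 6.54 ± 1.07 CPM in KPC1 (SD, n = 4), and at most 0.749 CPM in the other 6 lines. KPC1 and N overlapped, and both lay above every library of the rest. In V, the mono-culture libraries held 0, 0.103, 0 and 0.129 CPM of Ccl5 and the coculture libraries 2.07, 2.70, 2.65 and 3.06 CPM, a fitted change of 5.26 (adjusted p = 8.12e-11, edgeR). Changes in E, T, K, M and H were 4.42, 3.96, 3.81, 3.10 and 2.76, and each was called, the change in M being 4.29 without replicate 4. N rose by 0.93, from 5.85, 3.71, 9.21 and 10.8 CPM to 11.5, 12.5, 13 and 19.6 CPM, and lost its call without replicate 2 (adjusted p = 0.11). KPC1 was not called, at 6.54 CPM and 7.70 CPM. The difference in response among lines had an adjusted p of 6.1e-10.

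Cxcl10 was likewise highest in N and KPC1 in mono-culture, at 3.05 ± 2.24 and 3.04 ± 1.42 CPM (SD, n = 4), and between 0.0482 and 0.445 CPM elsewhere. H gave the largest rise, from 0.315, 0.416, 0.865 and 0.183 CPM to 1.69, 7.34, 17.2 and 16.5 CPM, a change of 4.53 (adjusted p = 6.8e-09, edgeR). The coculture libraries of H were all higher, but their own spread was wide. V rose by 4.16 and T by 3.63, K by 2.96 (3.85 without replicate 2, 2.28 without replicate 4, and 0.53 with no call by limma on log2(RPKM + 1), adjusted p = 0.154) and KPC1 by 1.32, which lost its call without replicate 3 (1.14, adjusted p = 0.131). In M, 3 counts in mono-culture became 42 in coculture, a ratio of 16.5 with a 95% Poisson interval of 5.26 to 83.0. N was not called, at 3.05 and 4.01 CPM. The other Cxcr3 ligands were not detectable at a level that could be compared, with 3 counts of Cxcl9 and 138 of Cxcl11 in all libraries. Exons of Cxcl10 overlap those of Art3 on the opposite strand, and whether counting used the strand is not stated.

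The neutrophil attractants did not move as 1 group. Cxcl1 rose by 0.93 ± 0.25 (SE, adjusted p = 0.0129, edgeR) and Cxcl3 by 1.68 ± 0.45 (adjusted p = 0.0135), Cxcl5 was not called, and Cxcl15 fell by 2.25 on the log2 scale with an SE of 0.41 (adjusted p = 0.00302). Cxcl1 was called higher in 5 lines, E, H, V, T and KPC1. The call in H (0.97, adjusted p = 0.0856) was lost without replicate 2, 3 or 4 and fell to 0.61 without replicate 3, whose coculture library held 24.99 CPM beside 4.65 to 5.41 in the other 3, and the call in E was lost without replicate 1 (adjusted p = 0.103). In V it went from 2.24, 1.54, 3.12 and 1.42 CPM to 6.82, 4.46, 11.2 and 8.50 CPM. N had the highest level in mono-culture, 13.1 CPM, and stayed at 14.1 CPM, which was no call. In KPC1 the coculture libraries were at 59.6, 9.53, 22.1 and 12.1 CPM. There the called change of 1.48 became 0.52 without replicate 1 (adjusted p = 0.455), so it rested on that library.

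Cxcl3 was low throughout, at most 1.61 CPM in mono-culture and 2.90 CPM in coculture, both in KPC1. E rose from 0.324, 0.373, 0.215 and 0.372 CPM to 3.03, 2.26, 2.03 and 3.15 CPM, a change of 3.02 (adjusted p = 1.84e-06, edgeR). V had no count of Cxcl3 in mono-culture and 13 in coculture, at least 4.45-fold higher on a floor of 3 counts over the group, and K had 0 and 4 counts and was not called. Cxcl2 passed the filter only in the test within lines, where it was called higher in E, V, T and KPC1. Its highest mean was 1.03 CPM, in KPC1 in coculture, and the called change of 1.90 there was 1.11 without replicate 1 (adjusted p = 0.174).

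Cxcl15, a neutrophil attractant known from the lung that shares its cluster with Cxcl1, was lower in coculture in 7 of 8 lines. In T, 5.78, 7.84, 8.21 and 7.14 CPM compared with 0.652, 1.04, 0.185 and 1.09 CPM, a change of -3.29 (adjusted p = 5.19e-07, edgeR). E fell from 5.09, 5.22, 3.01 and 5.57 CPM to 0.527, 0.754, 0.279 and 0.215 CPM, a change of -3.37. The libraries of both clones lay apart. V, KPC1, N, H and M changed by -2.90, -2.61, -2.27, -1.83 and -1.78, each called. K had little Cxcl15 in either culture, 0.395 and 0.715 CPM, and was not called. Krt18 did not pass the test over the same lines, with a change of 0.02, while Krt8 and Krt19 changed by -0.51 and -0.70 (adjusted p = 0.0809 and 0.0024).

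Per length, Cxcl5 had the highest median of these ligands in mono-culture, 11.2 RPKM over the 8 lines beside 2.81 for Cxcl1 and 3.12 for Cxcl15. It ran from 2.21 CPM in V to 40.7 CPM in N. Its change over lines was -0.49 with a 95% interval from -1.03 to 0.05 (adjusted p = 0.123, edgeR), and it was past the threshold without K, V or replicate 1 (adjusted p = 0.0192, 0.091 and 0.056). N was called lower, with 36.2, 41.3, 54.5 and 30.8 CPM in mono-culture and 12.1, 19, 11.9 and 9.49 CPM in coculture. KPC1 in mono-culture held 8.84, 7.20, 63 and 9.64 CPM, so its mean rested on replicate 3, and its change of -0.26 became 1.05 without replicate 3 (adjusted p = 0.0679). In M, where the replicate numbers paired the libraries, the change of -0.92 was called with the number as a block (-0.93, adjusted p = 0.0297). A difference in response among lines was not called for Cxcl5 (adjusted p = 0.137), but it was without replicate 3 of every group (adjusted p = 0.00484).

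**Figure D4:**
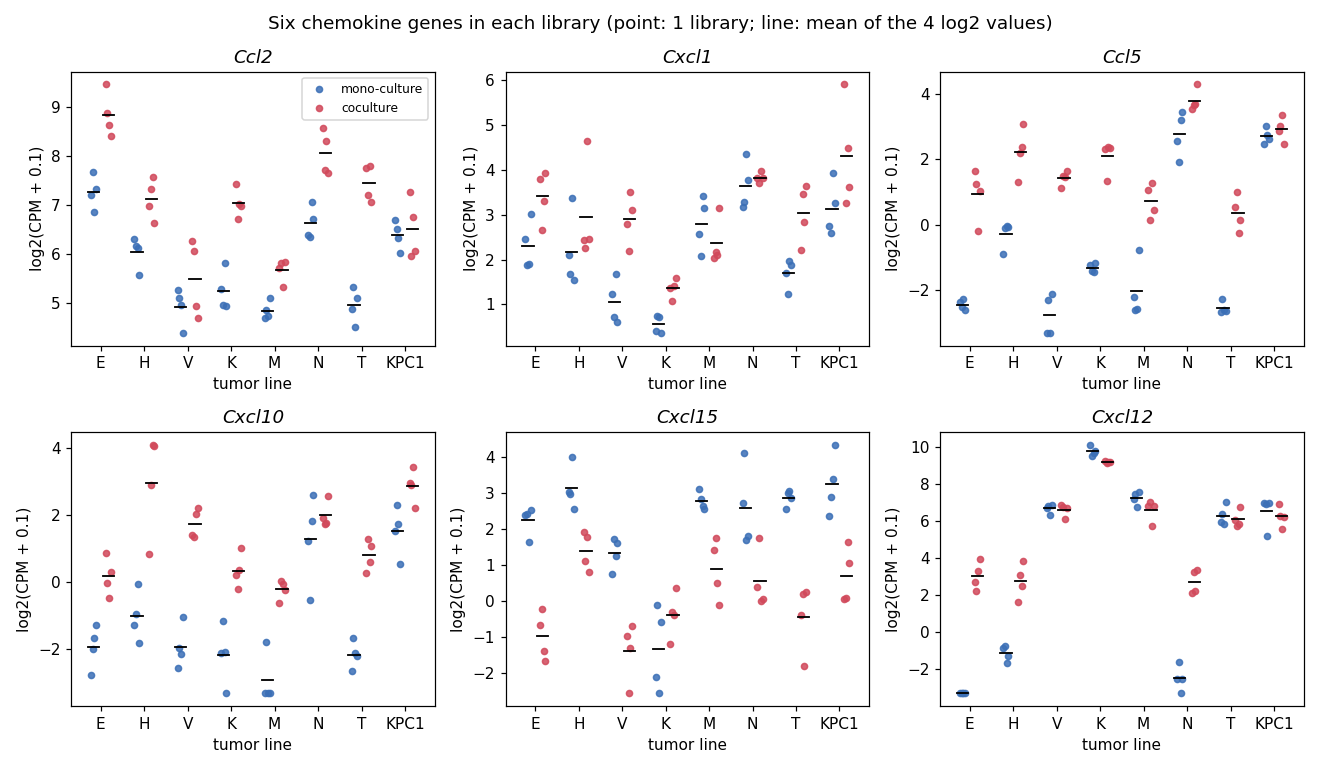
Level of 6 chemokine genes in every library, as log2(CPM + 0.1), by tumor line, with mono-culture in blue and coculture in red, where each point is 1 library and each bar the mean of 4 log2 values. Ccl2, Ccl5 and Cxcl10 sit higher in coculture in most lines, Cxcl15 sits lower in every line but K, and Cxcl12 in mono-culture is lowest in E, N and H, at 0 to 0.366 CPM on average.

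Cxcl12 (ENSMUSG00000061353, chr6:117168535-117181367, plus strand) parted the lines in mono-culture. E had 0 counts in its 4 libraries, which allows up to 3 counts. N had 1, 3, 0 and 1 counts, and H had 7, 6, 4 and 5. T, KPC1, V and M held 82.3, 102, 103 and 153 CPM, and K 876 ± 170 CPM (SD, n = 4). No library of K overlapped with M, the next in order, and no library of T overlapped with H, while T, KPC1, V and M formed a run whose neighbors overlapped. Levels among the 8 lines differed beyond the spread of their libraries (F test, adjusted p = 7.01e-31).

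In coculture, Cxcl12 was called higher in the 3 clones that nearly lacked it and in no other line. The libraries of E held 6.32, 4.59, 9.78 and 15.3 CPM, at least 207-fold more than the floor in mono-culture. H held 3.02, 8.41, 5.50 and 14.1 CPM and changed by 4.44 (adjusted p = 1.48e-07, edgeR), and N held 4.27, 9.17, 4.49 and 9.96 CPM and changed by 6.07 (adjusted p = 1.28e-07, and 6.71 without replicate 2). The gains in E, H and N were 8.99, 7.39 and 6.88 CPM. In the same 12 libraries, the 6 fibroblast markers summed to between 34 and 159 CPM, and the ratio of Cxcl12 to that sum was between 0.0444 and 0.185. The lines with high Cxcl12 showed no call in the fit without a block. M, whose replicate numbers were taken as pairs, changed by -0.59 (adjusted p = 0.16), or by -0.63 with the number as a block (adjusted p = 0.00175). K was at 1110, 716, 798 and 881 CPM in mono-culture and 590, 549, 582 and 579 CPM in coculture. Those ranges of K did not overlap, yet the change of -0.61 had an adjusted p of 0.204. With the number as a block, K was called lower (-0.59, adjusted p = 0.00503, edgeR), although its numbers were not taken as pairs. Over the 8 lines the change of 0.95 was not called (95% interval -0.96 to 2.86, adjusted p = 0.383, edgeR). Fewer cells with the transcript and less of it per cell cannot be told apart in bulk libraries, and whether the Cxcl12 of these 3 clones came from tumor cells or from fibroblasts was not tested.

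**Figure D5:**
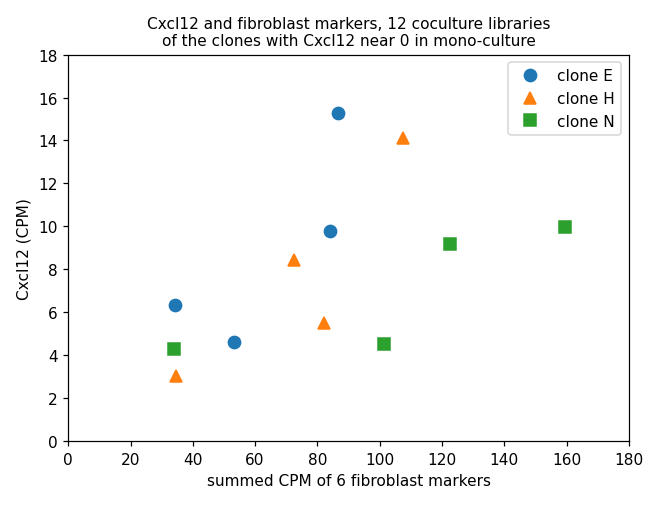
Cxcl12 (CPM, vertical axis) against the summed CPM of 6 fibroblast markers in the 12 coculture libraries of clones E, H and N, where each point is 1 library. Cxcl12 ranges from 3.02 to 15.3 CPM and the markers from 34 to 159 CPM.

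Of the transmembrane ligands, Cx3cl1, which binds Cx3cr1 on monocytes and T cells, fell in coculture by 0.64 on the log2 scale, with an SE of 0.22 (adjusted p = 0.0357, edgeR). It was abundant in every line, from 38.3 CPM in K to 173 CPM in H in mono-culture. V fell from 123, 109, 100 and 109 CPM to 26.8, 41.2, 19.4 and 43.6 CPM, and KPC1 from 72.0, 70.1, 71.7 and 85.7 CPM to 40.5, 21.1, 40.6 and 33.3 CPM, both without overlap. E, H and T were also called lower, E not without replicate 4 (adjusted p = 0.292). K went the other way, from 38.3 to 53 CPM with libraries that did not overlap, but was not called (change 0.47, adjusted p = 0.218), and the response differed among lines (adjusted p = 7.41e-06).

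Cxcl16, a scavenger receptor and the Cxcr6 ligand, did not pass the test over lines, with a change of -0.05 and a 95% interval from -0.32 to 0.22. Its lines differed by up to 10.01-fold in mono-culture, from 4.56 CPM in V to 45.6 CPM in M. M and V were called lower and N higher, each by about 0.5 on the log2 scale (-0.50, -0.50 and 0.48), with the call in V lost without replicate 1 or 3 and that in N without replicate 3. Its exons overlap those of Zmynd15 on the opposite strand. Adam10 and Adam17, which shed both proteins, changed by -0.44 and 0.17 over the lines (adjusted p = 0.01 and 0.0355).

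Cxcl17, a mucosal ligand with an unsettled receptor, fell by 2.04 on the log2 scale (SE 0.43, adjusted p = 0.00503, edgeR) and was called lower in 6 lines. V had 1.09, 2.31, 2.74 and 1.74 CPM in mono-culture and 0.134, 0.203, 0 and 0.0566 CPM in coculture, a change of -4.28 (adjusted p = 7.46e-09, and -3.68 without replicate 3). T and N changed by -3.10 and -2.27, and K and M were not called. Ccl25, a gut and thymus ligand of Ccr9, rose by 0.30 ± 0.11 (SE, adjusted p = 0.0475, edgeR), was higher by its mean in all 8 lines and was called in V and T only, and without either of those lines the call was lost (adjusted p = 0.112 and 0.114). Its exons overlap those of Elavl1 on the opposite strand. Ccl27a, a skin ligand of Ccr10 with a near-identical copy in Ccl27b and exons shared in position with Il11ra1 on the opposite strand, changed by 0.19 (95% interval -0.14 to 0.52, adjusted p = 0.31) and is uncertain for these reasons. Ccl20, the Ccr6 ligand, had 253 counts in all, 97 of them in the mono-culture of N, at 1.83 CPM. In coculture N held 69 counts, 1.05 CPM, and was not called, while E, H, V and KPC1 were called higher from at most 6 counts, and each of these calls was lost without 1 replicate.

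By line, the counts of ligands called higher and lower among the 17 were 11 and 3 in E (32.1% and 29.2% of all genes), 9 and 3 in H (21.4% and 22.6%), 10 and 4 in V (30% and 31.5%) and 5 and 0 in K (12.5% and 8.02%). M had 3 and 2 (21.6% and 17.3%), N 7 and 3 (20% and 17.4%), T 9 and 3 (31.5% and 30.7%) and KPC1 5 and 3 (20.1% and 19%). These counts are of the fit without a block. With the replicate number as a block, M and N, whose numbers were taken as pairs, had 3 and 4 and 7 and 3. Shares of all genes were not taken for that fit. E, V, H and T had the most ligands called higher. All 17 ligands differed among lines in mono-culture by the F test, as did 95.1% of all genes, and 15 of 17 differed in their response, as did 71.3%. The highest line exceeded the lowest by 5.44-fold in mono-culture and 9.55-fold in coculture for Ccl2.

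Whether ligands differ between the metabolic groups was tested on the summed mono-culture counts of 3 group 1 clones against 4 group 2 clones. None of 15 ligands was called by edgeR, and neither was any of the 14829 genes tested (0%), while 766 genes, 5.17%, and 2 ligands had an unadjusted p under 0.05. DESeq2 called 117 genes, 0.789%, and 2 ligands, Cxcl16 and Ccl25. Cxcl16 was at 10.9, 13.8 and 4.56 CPM in E, H and V and at 43.3, 45.6, 22 and 29.7 CPM in K, M, N and T, without overlap, a difference of -1.86 for group 1 against group 2 (adjusted p = 0.888 by edgeR and 0.0161 by DESeq2). Ccl25 was at 5.06, 4.62 and 5.01 CPM against 2.97, 3.196, 2.54 and 3.02 CPM, a difference of 0.70 (adjusted p = 0.888 and 0.0512). These 2 of 15 ligands had clone means that did not overlap, as had 5.49% of all genes. The third by p was Cx3cl1, at 118 ± 52.6 and 70.3 ± 33.6 CPM (SD, n = 3 and 4), which was called by neither tool (adjusted p = 0.888 and 0.83). Cxcl12 was at or near 0 in E and H of group 1 and in N of group 2.

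Most receptors of these ligands had few counts in the tumor cells. Of 18 chemokine receptors, 3 had no count and 3 could be tested, of which Ccr7, the Ccl19 and Ccl21 receptor, was higher in coculture by 1.25 ± 0.34 (SE, adjusted p = 0.0144, edgeR), at up to 5.39 CPM, and Cxcr5 lower by a change of -0.43 (adjusted p = 0.0752). Ccr10 was not called. Cxcr4 reached 13.7 CPM in its highest mono-culture, with a median over lines of 0.03 CPM. Ackr3, an atypical receptor that takes up Cxcl12, was at 31.3 to 104 CPM in coculture and was not called. Of 3 chemokine genes outside the symbol rule, Ppbp was tested and not called, Pf4 had 5 counts and Xcl1 none.

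Among pathway lists, 8 of 15 interferon response genes tested were higher in coculture and 1 was lower, with a median change of 0.87, beside 27.2% higher and 27.4% lower of all genes. The largest were Ifit1, Ifit3, Isg15 and Usp18, at 3.71, 3.62, 3.22 and 3.10 (adjusted p = 0.00225, 0.00152, 0.00117 and 0.00215, edgeR). Of 16 genes of NF-kB subunits and feedback targets, 6 were higher and 5 lower, with a median of -0.11, which is near the shares of all genes. Traf1 and Tnfaip3, which are feedback regulators of the pathway, changed by 0.95 and 0.80, and Icam1, an adhesion molecule, and Nfkbiz by -0.70 and -0.46. Of 13 inducing cytokines and receptors tested, 3 were higher and 7 lower. Il1rn, the interleukin 1 receptor antagonist, changed by -1.52, Il1rap and Il17ra, receptor chains, by 0.89 and 0.78 and Tlr2 by -0.68. The inducers themselves, Il1a, Il1b, Tnf and Ifnb1, had 5, 3, 1 and 1 counts in all libraries, and Ifng and Il17a had none. Of 5 shedding and trimming enzymes tested, 3 were higher and 1 was lower, led by Mmp2 at 3.54 (adjusted p = 0.0401), which is also made by fibroblasts. Cd68 was the 1 of 6 leukocyte markers that could be tested and was higher, by 1.37 ± 0.35 (SE, adjusted p = 0.0108), while Ptprc, Itgam, Lyz2 and Csf1r had between 19 and 118 counts in all libraries. Of 3 endothelial markers, Kdr was higher and Pecam1 lower, at no more than 7.62 CPM.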

How the data were processed

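RNA of 64 libraries (strand-specific polyA kit, paired-end) was measured. The authors deposited whole-number read counts per gene and RPKM values. Their processing notes name mm10, featureCounts and edgeR without roles. The counting strand setting, annotation and aligner are not given in the sources used here. All columns were mapped, and 0 were left unused. Counts were analyzed in edgeR 4.0.16 (R 4.3.3) with trimmed-mean normalization, its expression filter and the quasi-likelihood test, with Benjamini-Hochberg adjustment over all genes and a threshold of 0.1. Over lines, 16 sums were fitted with the line as covariate, and within lines all 64 libraries with 16 means, whose F tests (7 df) compared lines. CPM were computed from the deposited counts. Alternatives used DESeq2 1.42.0 and limma 3.58.1 on log2(RPKM + 1) or + 0.1. Scripts were tested on simulated data. Figures and promoters used Python 3.11.15. Gene positions came from GENCODE on GRCm38 and promoters from RefSeq on GRCm38.p6. Line effects named are up to 4 per line, the largest changes past the threshold with a mean of at least 1 CPM in either culture, together with the member's values in other lines, which were added afterwards. The group comparison names the 3 lowest p, and each other list up to 4 called genes with the largest change. Members and lists were chosen with earlier results of these data known. Leaving out the libraries highest in fibroblast markers, or replicate 3 of mono-cultured KPC1, was decided after the data were seen. Replicate numbers were taken as pairs where all 4 same-numbered correlations in a line exceeded 0.1, which held in M and N.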

Additional observations from a re-analysis of the deposited data

Results flagged for a closer look

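In 14 of the 200 sets of 4 libraries examined, 1 library stood apart from the other 3 by Dixon's test, and chance gives about 1 in 20. KPC1 in mono-culture gave 4 of them. The library numbers split the 64 libraries into 2 sample sheets of 43 and 21, an inference from the labels, and replicate 3 of mono-cultured KPC1 was the only library of its set on the larger sheet, while all 4 mono-culture libraries of K were on the smaller and all 4 of E on the larger. The part of the sheet in these values was not tested for single libraries. Its replicate 3 held 63.01 CPM of Cxcl5 (others 7.20 to 9.64), 36.8 CPM of Cxcl12 (others 121 to 125) and 5.70 CPM of Ccl25 (others 6.44 to 6.55), and its replicate 4 held 85.7 CPM of Cx3cl1 (others 70.1 to 72.0). KPC1 in coculture had 2.40 CPM of Cxcl2 in replicate 1 (others 0.38 to 0.681). Cxcl1 was at 24.99 CPM in replicate 3 of H in coculture (others 4.65 to 5.41) and at 8.81 CPM in replicate 4 of M in coculture (others 4.001 to 4.36). Ccl5 was at 2.44 CPM in replicate 2 of K in coculture (others 4.93 to 5.11), and Cxcl10 at 5.88 CPM in replicate 4 of N in coculture (others 3.22 to 3.67). Cxcl15 was at 3.22 CPM in replicate 2 of N in coculture (others 0.888 to 1.202), and Cxcl17 at 2.38 CPM in replicate 3 of M in coculture (others 1.49 to 1.56). Cxcl16 was at 14.2 CPM in replicate 2 of E in mono-culture (others 9.53 to 9.97) and at 5.98 CPM in replicate 1 of V in mono-culture (others 3.998 to 4.18). Ccl27a was at 4.98 CPM in replicate 4 of M in mono-culture (others 2.65 to 2.96).

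Among 27 sets of 8 line means, 3 had a line apart. Cxcl12 in K was at 876 CPM in mono-culture and 575 CPM in coculture, while the next line was at 153 and 102 CPM. Ccl9 in E was at 48.1 CPM in coculture, with the next line at 19.2 CPM.

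The coculture response differed among the 8 lines for 15 of the 17 ligands by edgeR's F test of the line by culture term. It did so for 71.3% of all genes. The adjusted p was 7.28e-13 for Cxcl12, 6.1e-10 for Ccl5, 7.41e-06 for Cx3cl1, 1.75e-05 for Cxcl10, 5.45e-05 for Cxcl17 and 6.31e-05 for Ccl2. It was 0.0021 for Cxcl15, 0.00219 for Ccl20, 0.00252 for Cxcl16, 0.00379 for Cxcl3, 0.0053 for Ccl9 and 0.01 for Ccl7. For Cxcl1, Ccl27a and Cxcl2 it was 0.0268, 0.0577 and 0.0795.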

How the results depend on the processing

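Over lines, the 8 higher and 3 lower ligands became 7 to 9 and 3 to 4 when a line or replicate was left out, 8 and 4 with DESeq2, 7 and 3 with limma at either pseudocount, 10 and 3 with no filter on low counts, and 10 and 4 with libraries as replicates and a replicate block. Within lines, the 59 higher and 21 lower pairs became 51 to 55 and 20 to 22 without a replicate, 58 and 21 with DESeq2, 62 and 27 with the replicate block, and 59 and 21 with the sample sheet as a covariate. Response differences were 12 to 15 without a replicate and 15 with the block, and Ccl27a lost its call without replicate 1, 2 or 4, Cxcl2 without 2, 3 or 4 and Ccl7 without 4. Cxcl16 over lines ran from -0.13 to 0.011 when a line or replicate was left out, turning to 0.0076 without V, to 0.011 without M and to 0.016 without the coculture libraries highest in fibroblast markers, none of them called. In the group comparison, no ligand was called when any clone or replicate was left out, 2 were by DESeq2, and 4 with libraries as replicates and a replicate block, a fit that called 3619 of 12347 genes and in which libraries of a clone are not independent clones. Cx3cl1 there became -0.094 in the coculture libraries. The cause of these changes was not tested. Same-numbered mono-culture and coculture libraries of a line correlated at -0.107 to 0.44, over 0.1 in 22 of 32 pairs, and 23 of 32 correlated best with their own number, but every pair was over 0.1 only in M (0.143 to 0.271) and N (0.345 to 0.44), so the numbers were taken to pair the libraries in those lines alone. There the block added 2 lower calls in M and changed no call in N. Depth limits the 15 ligands with 1 to 138 counts, which were not tested.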
